A study of Mus musculus with 12 samples.

Results

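The collagen genes of the mouse were followed across 4 blood vessels: every gene whose symbol is Col, a number, the letter a and a number, 44 of the 19938 genes that the arrays measured with a probe set assigned to 1 gene symbol. Where a gene had several such probe sets the one with the highest mean was used, which concerned 2 of the 44 genes, Col6a5 and Col6a6. All 44 were found by gene identifier in the RefSeq gene table, with 0 symbols changed. Membership rested on names only, while the choice between the probe sets of a gene used their mean values.

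RNA came from the ascending aorta, the coronary artery, the descending aorta and the superior mesenteric artery, with 3 biological replicates per vessel and 12 Affymetrix arrays in all, to find expression profiles that go with the embryonic origin of a vessel. All mice were wild-type C57BL/6, 8 weeks old and untreated, and total RNA was taken from primary tissue without culture or sorting of cells. How the vessels were dissected, and whether 1 replicate is 1 animal or a pool, was not stated in the labels. P-values therefore measure the spread between these samples.

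Collagens are secreted or membrane proteins in which polypeptide chains wind around each other into a rigid helix. Fibrillar collagens such as types I, III and V bundle into the cables that give an artery its tensile strength, and are made mainly by fibroblasts of the adventitia and by smooth muscle cells of the media. Type IV builds the sheet-like basement membrane beneath endothelium and around each smooth muscle cell, type VI forms beaded filaments around cells, type VIII a hexagonal lattice near vascular cells, and fibril-associated collagens such as types XII and XIV coat the fibres. Multiplexins, types XV and XVIII, sit at the border between basement membrane and stroma.

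Values are log2 probe set intensities, on which a difference of 1 is a 2-fold change of signal, and levels are compared between vessels for 1 gene, never between genes. Array medians lay between 4.04 and 4.18. The first ascending aorta array stood apart from its replicates and is named at each result that rests on it. On that array the mean of 12 fibroblast markers other than collagens was 5.51, against 8.43 and 8.21 on the other ascending arrays, and the mean of 12 smooth muscle markers was 6.39 against 8.38 and 8.48. The 8 measured B cell markers had a mean of 7.83 there, against 3.89 and 3.94, and the 8 T cell markers 7.35 against 3.66 and 4.49. All 3 coronary arrays carried heart muscle transcripts, with a mean of 12 cardiomyocyte markers between 10.06 and 10.24, against 3.94 to 5.77 on the other 9 arrays. In such bulk RNA, fewer cells of a type and less RNA per cell cannot be told apart.

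Across all 12 arrays the coronary artery was the vessel in which collagen signals were most often lowest. Its mean was the lowest of the 4 vessels for 22 of 44 genes and the highest for 4, while the ascending aorta was highest for 16, and the descending aorta and the superior mesenteric artery for 12 each. Among the 11 fibrillar genes the coronary artery was lowest for 7 and the descending aorta highest for 6. Among the 6 type IV genes the ascending aorta was highest for 5 and the coronary artery lowest for 4. These orders are descriptions, since none of the single differences passed the test with all arrays. They were not counted over all genes, so they do not show that collagens differ from other genes. By limma's moderated F test over the 4 vessels, adjusted over all genes by the Benjamini-Hochberg method, 0 of 44 collagen genes had an adjusted p under 0.05, where 942 of all genes did (4.72%). Without adjustment 3276 of all genes and 3 collagen genes, Col12a1, Col1a1 and Col28a1, had p under 0.05.

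Most collagen genes varied little between vessels. The median range of the 4 vessel means was 0.34 over the 44 genes, against 0.43 over all genes. Some members had a mean below every array median, such as Col17a1 (3.78), Col11a1 (3.71) and Col8a2 (3.21). For these a small range cannot be told from a weak signal. For 3 genes the range exceeded 1, namely Col14a1 at 1.09, Col12a1 at 1.07 and Col1a2 at 1.06, and for 29 it was below 0.5. The 10 genes with the widest ranges also held Col6a3 at 0.97, Col1a1 at 0.95, Col18a1 at 0.78, Col8a1 at 0.75, Col4a1 at 0.72, Col5a2 at 0.69 and Col3a1 at 0.68. Among these 10 the coronary artery had the lowest mean for 8 and the ascending aorta for 2, Col3a1 and Col8a1.

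**Figure D1:**
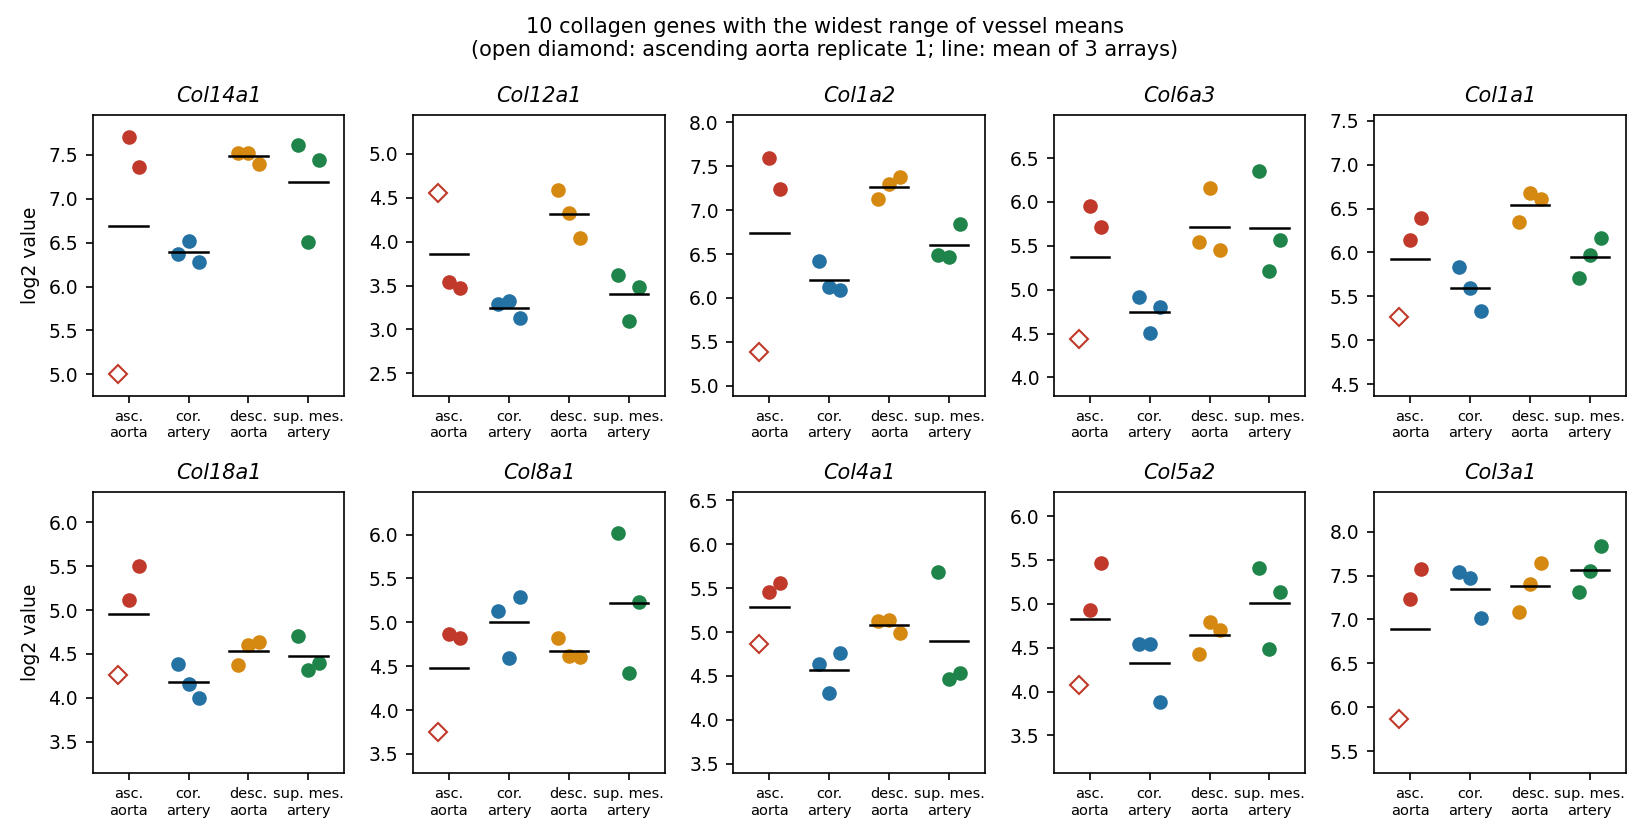
Log2 intensity of the 10 collagen genes with the widest range of vessel means in each of the 12 arrays, 3 per vessel, with 1 point per array (open diamond: ascending aorta replicate 1) and a line at each vessel mean. The ascending aorta's first array lies more than 2 log2 units below the mean of the other ascending arrays for Col14a1 and Col1a2 and about 1 above it for Col12a1.

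The first ascending array was the lowest of all 12 arrays for 9 collagen genes and the highest for 7, and lay over 1 log2 unit below both of its replicates for 7 genes. A fit without it is therefore given beside the fit of all arrays. The array was left out after its values were seen. This by itself narrows the spread of genes for which it lay apart, so calls without it are not a separate test. In that fit the ascending aorta rests on replicates 2 and 3 alone. Without the first ascending array the F test found 5 of 44 collagen genes, where 1825 of all genes passed (9.15%). The collagen share of 11.4% was close to that of all genes. The 5 genes were Col1a2 (limma adjusted p = 0.0029), Col12a1 (0.0099), Col18a1 (0.018), Col1a1 (0.029) and Col14a1 (0.032). Leaving out that array turned the sign of the ascending difference for 10 of 44 genes against the coronary artery, 13 against the descending aorta and 9 against the superior mesenteric artery. Leaving out any other single array called no collagen gene in any comparison.

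In the other comparisons the arrays of 2 vessels were separate for few collagen genes. Ascending arrays lay entirely above the coronary ones for 2 genes (8.3% of all genes) and below for 0 (11%), above the descending ones for 2 (6.09%) and below for 0 (9.62%), and above the mesenteric ones for 1 (4.73%) and below for 1 (4.62%). Coronary arrays lay entirely above the mesenteric ones for 2 (11.3%) and below for 4 (11.1%), and descending arrays above the mesenteric ones for 5 (12.5%) and below for 1 (10.4%). Each of these counts was a smaller share of the 44 genes than of all genes.

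The comparison of the coronary artery with the descending aorta held the collagen difference with the lowest adjusted p, that of Col12a1, when all arrays were fitted. Of the 44 genes, 34 were lower on average in the coronary artery (77.3%, against 50.8% of all genes). The median difference was -0.12, against -0.01 over all genes. The 3 coronary arrays lay entirely below the 3 descending arrays for 9 collagen genes, 20.5% of them, against 12.5% of all genes, and entirely above for 2, against 9.88%. With all arrays in the fit, limma called 0 of 44 collagen genes here, against 3.14% of all genes in either direction, and 4 had an unadjusted p under 0.05, all lower in the coronary artery (7.08% of all genes). Without the first ascending array, which is in neither vessel but adds to the shared spread, 4 were called, Col1a1, Col1a2, Col12a1 and Col14a1, each lower in the coronary artery, where 3.01% of all genes were lower. The differences themselves were the same in both fits. Beside the collagens, the mean of the fibroblast markers was 7.52 to 7.84 in the coronary arrays and 8.15 to 8.22 in the descending ones, and its part in these differences was not tested.

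Col1a1 and Col1a2 encode the chains of type I collagen, the main fibre of tendon, bone and artery wall. Col1a2 read 6.42, 6.12 and 6.09 in the coronary artery, 7.13, 7.30 and 7.38 in the descending aorta, 6.48, 6.46 and 6.85 in the superior mesenteric artery, and 5.38, 7.59 and 7.24 in the ascending aorta. All coronary arrays lay below all descending ones, and the first ascending array was the lowest of the 12. The coronary minus descending difference was -1.06 ± 0.43 (SE; 95% interval -1.98 to -0.14), with a limma adjusted p of 0.30. Without the first ascending array the SE was 0.19 and the adjusted p 0.0034, a 2.08-fold difference.

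Col1a1 read 5.84, 5.59 and 5.34 in the coronary artery, 6.34, 6.67 and 6.61 in the descending aorta, 5.71, 5.97 and 6.16 in the superior mesenteric artery, and 5.26, 6.14 and 6.39 in the ascending aorta. Coronary and descending arrays did not overlap, and the mesenteric arrays lay between or across them. The coronary minus descending difference was -0.95 ± 0.27 (SE; 95% interval -1.54 to -0.37; limma adjusted p = 0.093), and the adjusted p was 0.010 without the first ascending array. Type III collagen, encoded by Col3a1 and laid down in the same fibres, showed no such separation: its coronary arrays read 7.54, 7.48 and 7.02 and its descending arrays 7.09, 7.40 and 7.64. The Col3a1 difference was -0.03 (95% interval -0.82 to 0.76), and the interval was -0.50 to 0.44 without the first ascending array. The first ascending array, at 5.86, was the lowest of the 12 for Col3a1, against 7.23 and 7.57 on its replicates.

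The sequence before the Col1a2 start is shown because both type I chains were lower in the coronary artery in the fit without the first ascending array. The sequence is that of RefSeq, build GRCm38.p6, in which 35 of the 44 genes were matched to 38 windows. Col1a1, Col12a1 and Col14a1 were among the genes without a window, so the motif counts leave them out. The window is the 250 bases upstream of the transcription start, chr6:4505368-4505617 on the plus strand, 5′ to 3′, with capitals for matches to CCAAT, known as the CCAAT box, and for the GC box GGGCGG, each searched on both strands.
Col1a2: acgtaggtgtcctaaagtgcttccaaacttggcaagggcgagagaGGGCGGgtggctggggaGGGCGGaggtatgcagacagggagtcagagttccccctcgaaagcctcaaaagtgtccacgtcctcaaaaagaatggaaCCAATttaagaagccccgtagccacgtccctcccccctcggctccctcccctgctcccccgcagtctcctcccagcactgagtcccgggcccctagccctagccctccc
It holds 1 CCAAT and 2 GGGCGG matches. Over both strands CCAAT occurred in 13 of 38 windows of 35 collagen genes (34.2%) and in 33.8% of all 32851 windows of that length, and the TATA box TATAAA in 5 (13.2%) against 12.4%. GGGCGG occurred in 22 of the 38 (57.9%) against 32.7%. A match is a description of letters in this window and not a binding site.

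**Figure D2:**
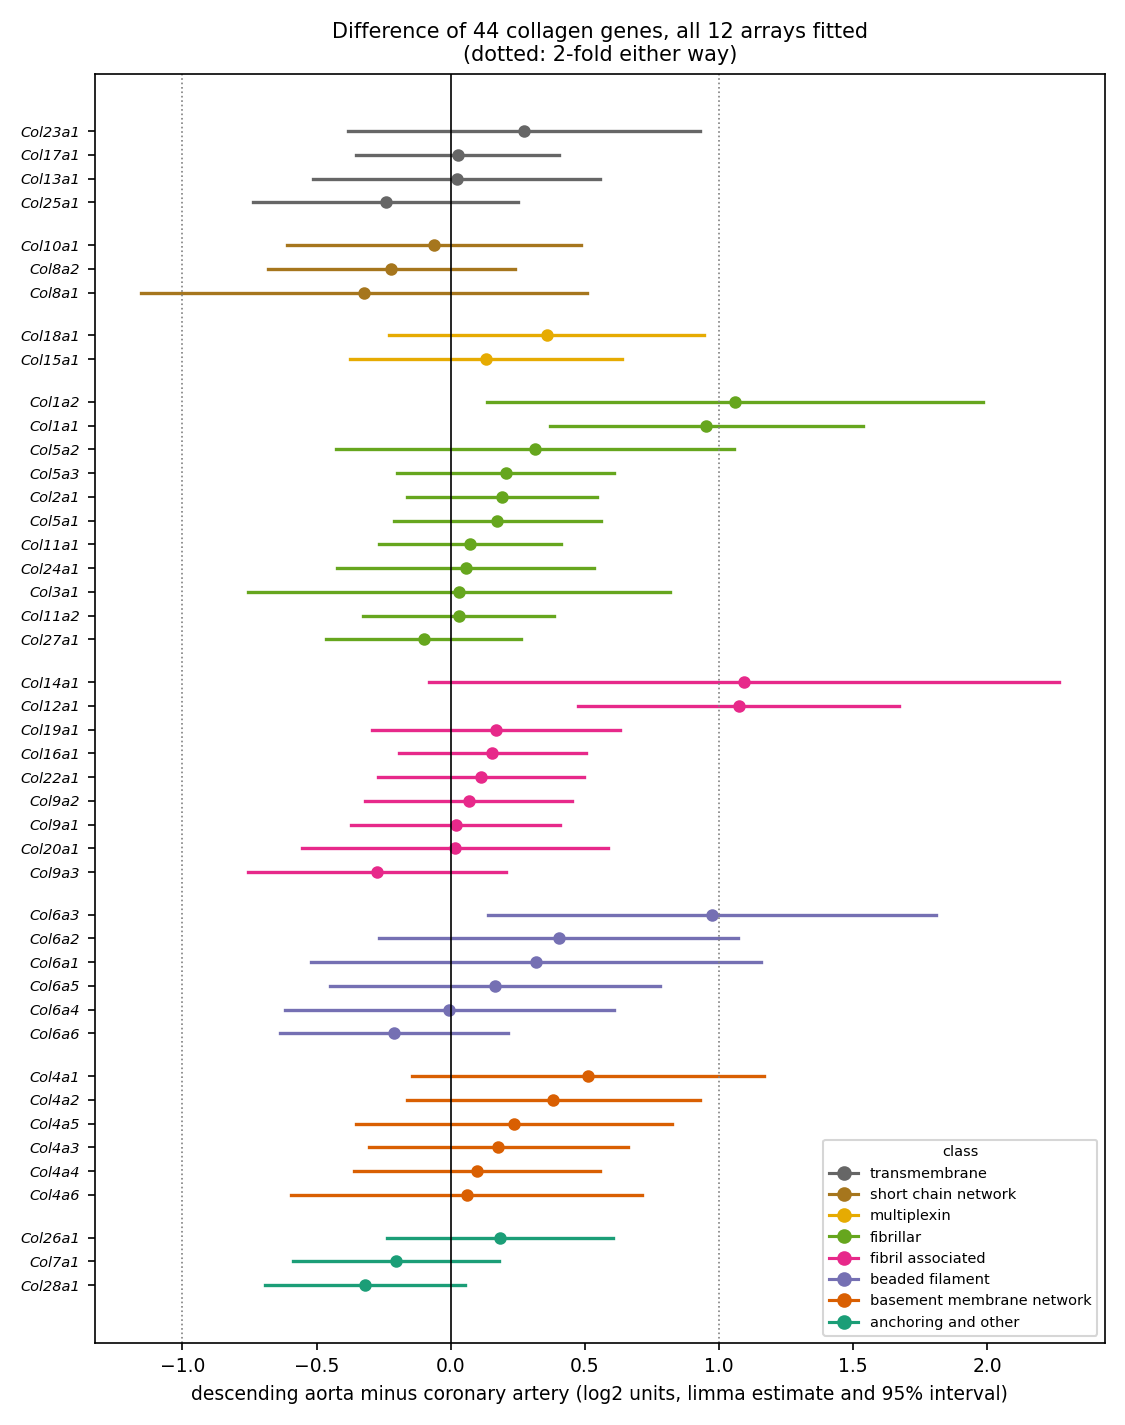
Difference of each collagen gene between the coronary artery and the descending aorta in log2 units, with limma's 95% interval from the fit of all 12 arrays. 34 of 44 points lie on the side of lower signal in the coronary artery, and the intervals of 34 genes stay within 2-fold in both directions.

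The fibril-associated collagens of types XII and XIV, which coat type I fibres and link them to their surroundings, had the widest ranges of all members. Col14a1 read 6.37, 6.52 and 6.28 in the coronary artery, 7.52, 7.53 and 7.39 in the descending aorta, 7.61, 6.51 and 7.44 in the superior mesenteric artery, and 5.01, 7.71 and 7.37 in the ascending aorta. Coronary arrays lay below all descending arrays, and the first ascending array was 2.53 below the mean of its replicates. The coronary minus descending difference was -1.09 ± 0.54 (SE; 95% interval -2.27 to 0.08; limma adjusted p = 0.45), and without the first ascending array it kept its size with an SE of 0.25 and an adjusted p of 0.021.

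Col12a1 went the other way on that array: it read 4.55, 3.54 and 3.47 in the ascending aorta, 3.29, 3.33 and 3.13 in the coronary artery, 4.59, 4.33 and 4.04 in the descending aorta, and 3.62, 3.10 and 3.49 in the superior mesenteric artery. The descending arrays were above every coronary and mesenteric array. The mean of Col12a1 over all arrays, 3.71, was below every array median, so its signal was weak. The coronary minus descending difference was -1.07 ± 0.28 (SE; 95% interval -1.67 to -0.48), a 2.10-fold difference with a limma adjusted p of 0.059, and 0.0045 without the first ascending array. With all arrays this coronary minus descending difference had the lowest adjusted p of any collagen difference and was not called. It passed in 7 of 20 alternative settings, with adjusted p from 0.0045 to 0.23. The descending minus mesenteric difference of Col12a1 was 0.92 ± 0.28 (SE; limma adjusted p = 0.11), and the adjusted p was 0.012 without that array.

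Between the ascending aorta and the coronary artery, 32 of 44 collagen genes were higher in the ascending aorta (72.7%, against 50.5% of all genes). The median difference was 0.12, against 0.00 over all genes. limma called 0 of 44 with all arrays (2.47% of all genes in either direction), and 3 had an unadjusted p under 0.05, Col18a1, Col4a1 and Col12a1, each higher in the ascending aorta (6.75% of all genes). Without the first ascending array 3 were called as higher there, Col1a2, Col18a1 and Col14a1 (2.03% of all genes). Col18a1 encodes type XVIII collagen, whose end fragment is endostatin, an inhibitor of endothelial growth. It read 4.26, 5.12 and 5.50 in the ascending aorta, 4.38, 4.16 and 3.99 in the coronary artery, 4.37, 4.60 and 4.63 in the descending aorta, and 4.70, 4.32 and 4.40 in the superior mesenteric artery. Ascending replicates 2 and 3 were above all other vessels, and the first was not. The ascending minus coronary difference was 0.78 ± 0.27 (SE; limma adjusted p = 0.19), and without the first array it was 1.13 ± 0.21 (SE; limma adjusted p = 0.0070).

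Type XVIII has more than 1 RefSeq start, and the probe set value does not say which transcript it came from. Upstream windows of 250 bases on the minus strand of chromosome 10 are shown for both, at chr10:77166531-77166780 and at chr10:77113706-77113955, because they differ in content. Capitals mark the same CCAAT and GC box motifs, read on either strand.
Col18a1 start at the first region: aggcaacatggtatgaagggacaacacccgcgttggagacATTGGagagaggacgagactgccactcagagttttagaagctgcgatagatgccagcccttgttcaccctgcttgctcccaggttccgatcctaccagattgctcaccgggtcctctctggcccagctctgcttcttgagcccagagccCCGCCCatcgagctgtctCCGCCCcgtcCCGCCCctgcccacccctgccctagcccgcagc
Col18a1 start at the second region: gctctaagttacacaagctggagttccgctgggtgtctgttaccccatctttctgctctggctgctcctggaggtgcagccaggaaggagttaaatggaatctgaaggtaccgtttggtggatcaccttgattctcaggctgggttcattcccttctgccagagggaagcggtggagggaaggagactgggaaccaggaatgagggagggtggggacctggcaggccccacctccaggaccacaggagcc
The first window holds 1 CCAAT and 3 GGGCGG matches and the second 0 of either. The other multiplexin, Col15a1, read 5.15, 5.95 and 5.90 in the ascending aorta and 5.05, 5.03 and 5.32 in the superior mesenteric artery. Its difference was 0.53 (95% interval 0.03 to 1.04; limma adjusted p = 0.65), and 0.79 (adjusted p = 0.064) without the first ascending array.

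The type IV chains Col4a1 and Col4a2 form the common basement membrane network of vessels, and their RefSeq starts lie head to head with 22 bases of overlap on chromosome 8, minus strand for Col4a1 and plus strand for Col4a2. Col4a1 read 4.86, 5.45 and 5.55 in the ascending aorta, 4.64, 4.31 and 4.76 in the coronary artery, 5.12, 5.13 and 4.99 in the descending aorta, and 5.69, 4.47 and 4.53 in the superior mesenteric artery. The ascending arrays lay above all coronary arrays, while 1 mesenteric array was the highest of all 12. The ascending minus coronary difference was 0.72 ± 0.30 (SE; limma adjusted p = 0.29), and 0.93 (adjusted p = 0.14) without the first ascending array. Col4a2, at 4.74, 5.35 and 4.94 against 4.64, 4.19 and 4.74, differed by 0.48 (95% interval -0.06 to 1.03; limma adjusted p = 0.40), and by 0.62 (adjusted p = 0.31) without the first ascending array.

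Col4a4, a chain of the basement membrane of the kidney filter, was compared between the ascending aorta and the superior mesenteric artery, at 4.01, 4.73 and 4.75 against 4.08, 3.82 and 4.05. The first ascending array lay among the mesenteric values. The difference was 0.51 (limma adjusted p = 0.61), and 0.75 ± 0.18 (SE; limma adjusted p = 0.044) without the first array, the only collagen call in that comparison. With all arrays 0 of 44 were called there (0.176% of all genes; 2.43% higher without the first array), and 2 had an unadjusted p under 0.05, Col4a4 and Col15a1 (3.76% higher among all genes). Between ascending and descending aorta 0 of 44 were called (0.015% of all genes) and 1, Col1a1, had an unadjusted p under 0.05 (6.27% lower among all genes), with 0 calls also without the first array (0.01% of all genes). Here that array turned directions: the ascending minus descending difference of Col1a2 was -0.53 with it and 0.14 without it, and that of Col14a1 -0.79 and 0.05.

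Type VI collagen is assembled from 3 chains, of which Col6a3 varied most. Col6a3 read 4.91, 4.51 and 4.81 in the coronary artery, 5.55, 6.15 and 5.45 in the descending aorta, 6.35, 5.21 and 5.56 in the superior mesenteric artery, and 4.44, 5.95 and 5.71 in the ascending aorta. All coronary arrays lay below all descending and all mesenteric arrays. The coronary minus descending difference was -0.97 ± 0.38 (SE; limma adjusted p = 0.29; without the first ascending array 0.068), and the coronary minus mesenteric difference was -0.96 ± 0.38 (SE; limma adjusted p = 0.26; without that array 0.061). Neither of these fits called it. Col6a3 passed between coronary artery and descending aorta in 2 of 20 alternative settings. They were the 6 arrays of that pair alone (limma adjusted p = 0.024) and a covariate averaging the lymphocyte markers (0.010). With that covariate, added after seeing the data, the coronary minus mesenteric difference of Col6a3 was -1.56 (limma adjusted p = 0.00083). Its ascending minus coronary difference was then 1.05 (0.0095). Its partner chains were less spread between these vessels: Col6a1 read 6.15, 5.83 and 5.72 in the coronary artery and 5.92, 6.36 and 6.38 in the descending aorta, and Col6a2 read 5.61, 5.52 and 5.74 against 5.76, 6.03 and 6.29. In the first ascending array Col6a1 read 4.61 and Col6a2 4.70, against 6.32 to 6.37 and 5.71 to 5.88 on its replicates.

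Between the coronary artery and the superior mesenteric artery limma called 0 of 44 collagen genes (3.24% of all genes), with 1 unadjusted p under 0.05, that of Col6a3 (6.64% lower among all genes). Without the first ascending array the count stayed at 0 (6.48% of all genes). In this comparison the median collagen difference was -0.13, with 30 of 44 genes lower on average in the coronary artery (68.2%, against 52.1% of all genes). Col5a2, a chain of type V collagen, which sets the width of type I fibres, read 4.55, 4.55 and 3.88 against 5.41, 4.49 and 5.14 there. The coronary and mesenteric arrays overlapped, and the difference was -0.69 (95% interval -1.43 to 0.05; limma adjusted p = 0.38), with an adjusted p of 0.17 without the first ascending array. Col8a1, of the type VIII lattice, ranged from 4.42 to 6.02 in the mesenteric arrays, and read 3.75, 4.86 and 4.82 in the ascending aorta. Its ascending minus mesenteric difference was -0.75 (95% interval -1.58 to 0.09; limma adjusted p = 0.76), and -0.38 (95% interval -1.16 to 0.40; adjusted p = 0.77) without the first ascending array.

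Between the descending aorta and the superior mesenteric artery limma called 0 of 44 with all arrays (3.2% of all genes), and 2 as higher in the descending aorta without the first ascending array, Col12a1 and Col1a2 (4.87% of all genes). With all arrays 3 genes had an unadjusted p under 0.05: Col12a1 and Col1a1 were higher in the descending aorta (8.48% of all genes) and Col28a1 lower (5.43%). Col28a1, best known from the sheath of peripheral nerves, read 2.18, 2.62 and 2.61 in the descending aorta and 3.02, 3.10 and 3.13 in the superior mesenteric artery. These arrays did not overlap, but the gene is among the dimmest 25% of genes. The difference was -0.61 ± 0.17 (SE; limma adjusted p = 0.084; without the first ascending array 0.053). Col4a4, Col4a5, Col15a1, Col28a1 and the partner chains were named after their values were seen.

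**Figure D3:**
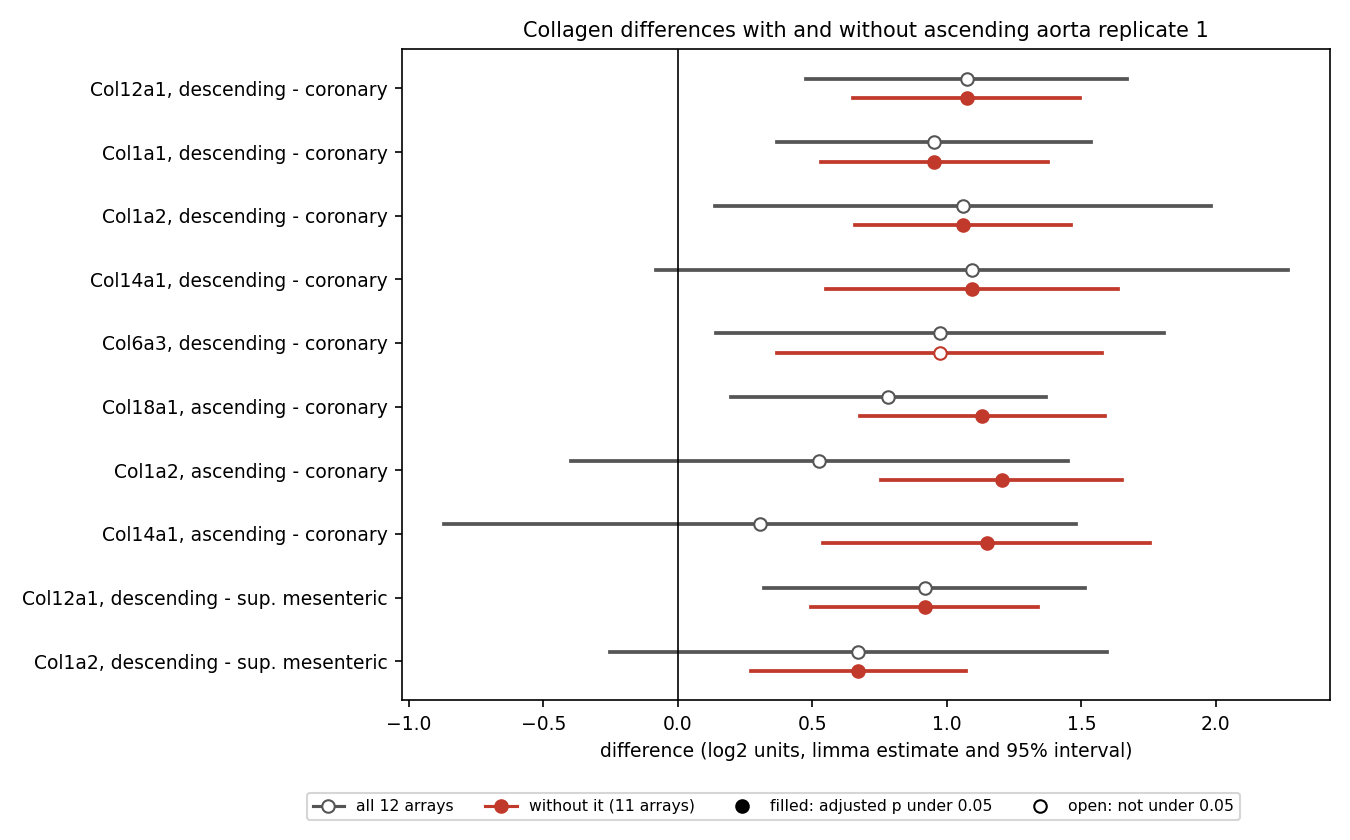
Differences of collagen genes between vessels in log2 units, with limma's 95% intervals, from all 12 arrays and from the 11 arrays without the first ascending one. Filled points have an adjusted p under 0.05. All differences shown but that of Col6a3 were calls of the fit without that array, so its filled points follow from the choice. The Col4a4 call of that fit, between ascending aorta and superior mesenteric artery, is not shown. No point is filled with all arrays.

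The 34 genes outside the widest 10 had ranges of vessel means from 0.08 to 0.61. The widest of these were Col6a2 at 0.61, Col28a1 at 0.61, Col4a5 at 0.58, Col15a1 at 0.53 and Col4a4 at 0.51. Col4a5, a chain of basement membranes in kidney and smooth muscle, read 3.98, 4.78 and 4.81 in the ascending aorta, 4.05, 3.89 and 3.89 in the coronary artery, 3.85, 4.28 and 4.40 in the descending aorta, and 4.84, 4.03 and 4.15 in the superior mesenteric artery. The first ascending array lay among the coronary values and the other ascending arrays above them. Without that array the ascending minus coronary difference was 0.85 ± 0.25 (SE; limma adjusted p = 0.092), and with all arrays and a covariate averaging the lymphocyte markers, added after seeing the data, it was 0.82 (limma adjusted p = 0.048). The fibrillar and fibril-associated classes hold members of the widest 10, such as Col1a2 and Col14a1. The narrower ranges that follow for these 2 classes are therefore those of their remaining genes. The 7 fibrillar genes outside the widest 10, among them the cartilage collagens Col2a1 and Col11a1, had ranges of vessel means from 0.10 to 0.23, with Col11a1 at 0.10 and Col27a1 at 0.11. The 4 transmembrane collagens had ranges from 0.08 to 0.27, the narrowest being Col17a1 of the hemidesmosome, and the other 7 fibril-associated genes ranged from 0.13 to 0.36. The mean of the 12 measured chondrocyte markers other than collagens was low and flat, between 3.36 and 3.71. A p that missed the threshold does not show equal levels: the 95% intervals reached a median of 0.50 to either side of the estimate, and the intervals stayed within 2-fold for 33 to 38 of the 44 genes in the 6 comparisons.

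Genes that fold, cut, cross-link and bind collagen were read from lists of 22, 14 and 11 genes, of which 21, 12 and 10 were measured. With all arrays the only call in these lists was Cd36, a scavenger receptor that binds collagen and carries fatty acids, which read 9.57, 9.41 and 9.22 in the descending aorta and 8.23, 8.41 and 8.47 in the superior mesenteric artery. It was 1.03 ± 0.24 (SE) higher in the descending aorta (2.04-fold; limma adjusted p = 0.036), with an adjusted p of 0.0041 without the first ascending array. The 9 adipocyte markers moved alongside, with list means of 8.21 to 8.90 in the descending arrays and 6.46 to 7.07 in the mesenteric ones, and their part in the Cd36 difference was not tested.

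Lox, lysyl oxidase, which starts the cross-linking of collagen and elastin, had the largest coronary difference of these lists. It read 4.38, 4.30 and 3.73 in the coronary artery, 6.40, 6.17 and 5.99 in the descending aorta, 6.13, 5.11 and 6.36 in the superior mesenteric artery, and 4.26, 6.31 and 6.80 in the ascending aorta. The coronary arrays lay below all descending and mesenteric arrays. The coronary minus descending difference was -2.05 ± 0.53 (SE; limma adjusted p = 0.062), a 4.13-fold difference with an adjusted p of 0.00099 without the first ascending array. Without that array the coronary artery was also lower than the descending aorta in Pcolce2, an enhancer of procollagen cutting (-1.08; limma adjusted p = 0.0090), in Sparc, a collagen-binding matrix protein (-0.81; 0.012), and in Ddr2, a receptor for fibrillar collagen (-1.20; 0.016), and 0 of the 21 folding genes were called there. Their adjusted p with all arrays was 0.63, 0.43 and 0.29.

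Markers of other cells moved with the same vessels. In the coronary arrays the mean of the fibroblast markers was 7.52 to 7.84 against 8.15 to 8.22 in the descending arrays, that of the smooth muscle markers 5.30 to 5.67 against 7.06 to 7.38, and that of the cardiomyocyte markers 10.06 to 10.24 against 3.98 to 5.77. Of the 12 smooth muscle markers only Cnn1 was called as lower in the coronary artery with all arrays (limma adjusted p = 0.029). Without the first ascending array 5 of the 12 were called as lower there. The mean of the 9 adipocyte markers was 5.88 to 6.23 in the coronary arrays and 8.21 to 8.90 in the descending ones, with 6 of 9 called by limma as lower in the coronary artery. That of the 8 brown adipocyte markers was 5.99 to 6.19 against 7.85 to 8.65, with 4 of 8 called as lower. The brown adipocyte markers did not all go 1 way, and 3 of the 8 were higher on average in the coronary artery. Of the 12 fibroblast markers 0 were called by limma between these vessels with all arrays and 2 had an unadjusted p under 0.05, while all 12 cardiomyocyte markers were called as higher in the coronary artery. On the mesenteric arrays the smooth muscle mean was 9.33, 6.19 and 6.70, and the type IV mean 4.78, 4.12 and 4.19. The B cell mean there was 4.64, 6.63 and 6.42. The mean of 7 pancreatic acinar markers was 5.26, 3.87 and 9.79, against 3.24 to 4.73 on the arrays of the other vessels. The part of cell makeup in the collagen differences was not tested. Without the first ascending array 4 of the 12 fibroblast markers were called as lower in the coronary artery than in the descending aorta and 1 as higher.

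**Figure D4:**
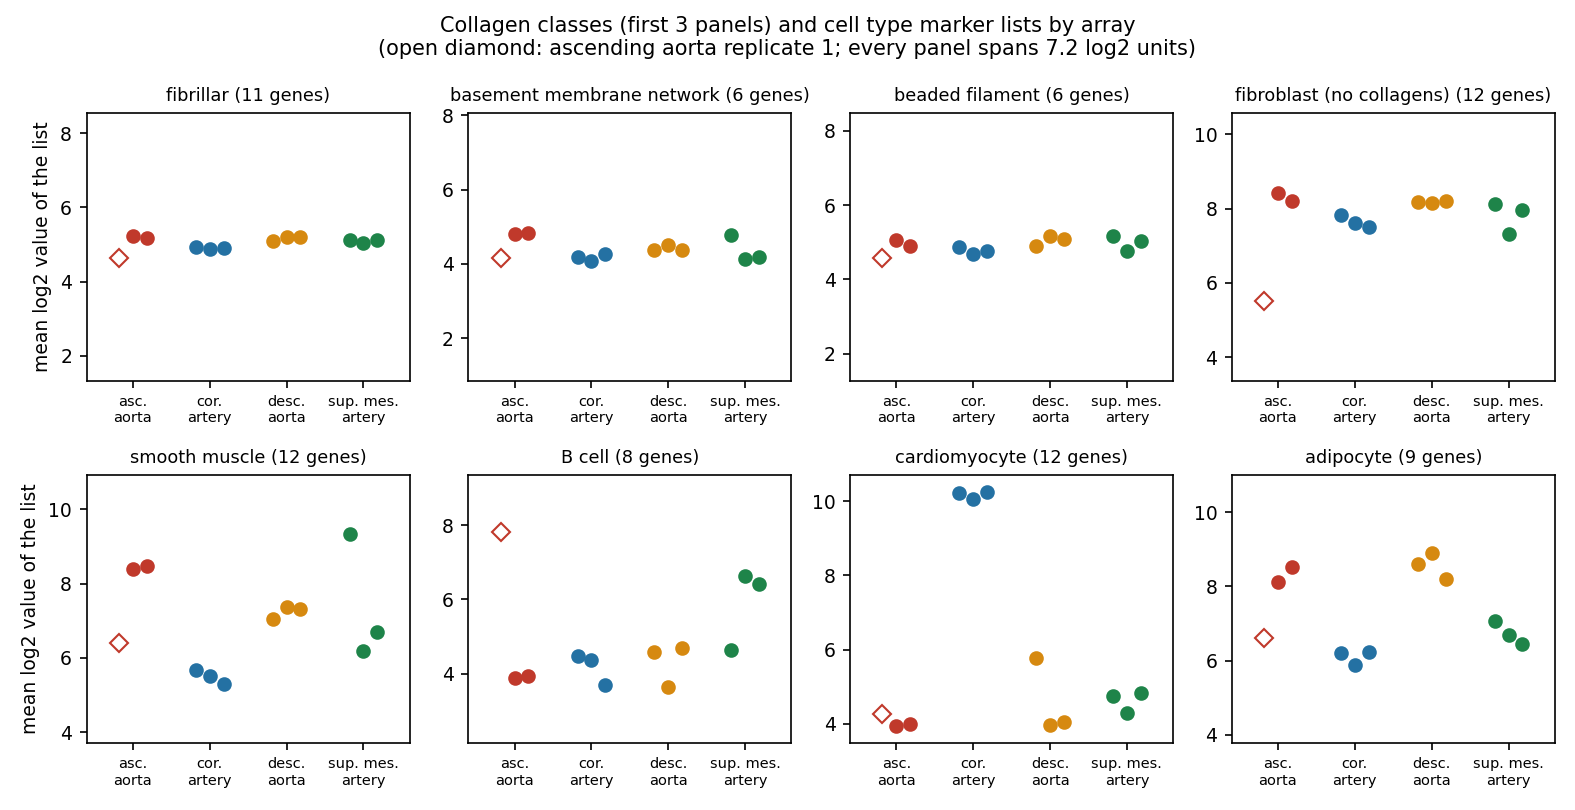
Mean log2 intensity of collagen classes and of cell type marker lists on each of the 12 arrays, 3 per vessel. The first ascending array lies below its replicates in the fibroblast and smooth muscle lists and above them in the B cell list, and the coronary arrays lie above all others in the cardiomyocyte list.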

How the data were processed

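RNA from 4 vessels was hybridised to 12 Affymetrix arrays, 3 per vessel, from 6 ug of Trizol-extracted total RNA per the labels' protocols. The submitters' processing notes name RMA and Partek 6.6, with no role or order. The authors deposited log2 values of 35556 probe sets, and how they were normalized is not stated there. Of these probe sets 21789 had 1 symbol, 1621 had several and 12146 had none, and only the first were used. All 19938 genes were fitted with limma 3.58.1 in R 4.3.3 (a separate mean for each vessel, 8 residual degrees of freedom), followed by an F test and 6 contrasts, with Benjamini-Hochberg adjustment over all genes within each and a threshold of 0.05. The script was tested on simulated data. Figures were drawn with matplotlib 3.10.9.

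The members, the lists and the tests were chosen with earlier results of these data known. Collagen genes named with array values were mainly those past a test in any setting or with an unadjusted p under 0.05, related chains, and the 10 members with the widest range of vessel means. Not all of them are printed for every array. Of other lists at most 5 genes per comparison were named. Alternatives were renewed quantile normalization, averaged probe sets, a filter on dim genes, array weights, the replicate number as a block, the arrays of a pair alone, each array left out, and 3 arrays left out. A covariate averaging the lymphocyte markers was added after seeing the data. The number of arrays limits the precision.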

Additional observations from a re-analysis of the deposited data

How the results depend on the processing

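The 18 differences followed through 20 alternative settings were chosen from these same data. Each had an unadjusted limma p under 0.05 or joined the highest and lowest vessel means of a gene among the widest 10. Each kept its sign, with Col28a1 followed in 19 settings. Since large differences were chosen, this does not show stable signs for collagen genes in general. Leaving out the first ascending array turned the sign for 9 to 13 of 44 genes in comparisons with the ascending aorta. With all arrays and the main settings 0 of 44 collagen genes were called in the F test and in each of the 6 comparisons. The counts that moved follow, each with the share of all genes called under the same setting. Renewed quantile normalization called 1 gene between coronary artery and descending aorta (2.67%). Array weights, in which the first ascending array had a weight of 0.26, called 2 by the F test (9.12%), 1 between ascending aorta and coronary artery (4.45%), 3 between coronary artery and descending aorta (5.49%) and 2 between descending aorta and superior mesenteric artery (6.8%). The lymphocyte covariate, chosen after seeing the data, called 4 (6.58%), 4 (4.4%), 5 (5.04%) and 1 (2.5%) in the same order, and 2 between coronary and superior mesenteric artery (3.99%). Fitting only the 6 arrays of coronary artery and descending aorta called 5 (6.32%). A further setting left out 3 of the arrays with raised markers of another tissue. They were ascending replicate 1 (lymphocytes), descending replicate 1 (a cardiomyocyte mean of 5.77 against 3.98 and 4.04) and mesenteric replicate 3 (a pancreatic acinar mean of 9.79). This setting kept other such arrays, among them the coronary ones (cardiomyocyte means of 10.06 to 10.24) and mesenteric replicate 2 (a B cell mean of 6.63). It called 1 by the F test (5.86%), 2 in ascending against coronary (3.34%) and 3 in coronary against descending (3.63%). Leaving out each array in turn gave 0 to 5 by the F test, 0 to 3 in ascending against coronary, 0 to 1 in ascending against mesenteric, 0 to 4 in coronary against descending and 0 to 2 in descending against mesenteric, the upper values all from leaving out the first ascending array (9.15%, 3.85%, 3.15%, 5.3% and 6.83% of all genes). The cause was not tested.

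No pairing by replicate number was seen. Deviations of same-numbered arrays of different vessels correlated between -0.25 and 0.09, over 0.1 in 0 of 18 pairs. Of the 12 arrays 3 correlated best with their own number. With 3 arrays per vessel this cannot exclude that same-numbered samples came from the same mice, which the labels do not state. With the replicate block 1 collagen gene, Col12a1, was called between coronary artery and descending aorta (2.63% of all genes).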

Other observations

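Single collagens were spread between the mesenteric replicates. The first mesenteric array was more than 0.5 above both others for 6 of the 44 collagen genes, among them Col8a1 (6.02 against 4.42 and 5.23) and Col4a1 (5.69 against 4.47 and 4.53). Col6a5 and Col6a6 each had a second probe set. For Col6a5 the set not used read 4.98, 3.39 and 3.54 in the ascending aorta and the set used 4.76, 3.97 and 3.33, so that the first ascending array was the highest of the 3 in both. The order of vessels differed between the sets. The set used had its lowest mean in the coronary artery (3.94) and its highest in the superior mesenteric artery (4.12). The set not used read 4.67, 3.34 and 4.22 against 3.56, 4.15 and 3.37 there. For Col6a6 the ascending arrays read 3.20, 4.19 and 3.71 with the set not used and 4.80, 4.89 and 5.12 with the set used. On that array Col12a1, Col6a5 and Col10a1 were 1.04, 1.11 and 0.94 above the mean of its replicates, while most of the fibrillar and type VI genes with the widest ranges were below it.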
